A study of Mus musculus with 12 samples.

Results

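The suprabasal keratins *Krt1*, *Krt10*, *Krt2*, *Krt77*, *Krt78*, *Krt79* and *Krt80* were followed through 12 RNA-Seq libraries of differentiating primary keratinocytes of BALB/c neonatal mice. A locus of the count table was taken when its gene name was one of these 7 symbols, and these 7 were part of 21947 loci in all. Joined names were split at a plus sign, so that *Krt80* was read from the locus *Krt80*+*AK138921*. The 7 loci whose joined names hold a member beside a comma were left out, and they held 14 counts in all. Cells were grown at 0.05 mM calcium, and all 12 cultures were moved to 0.12 mM calcium to differentiate. At 24 h after seeding they received 75 pmol of a pool of siRNAs against *Sbsn* (siSbsn), the same amount of a non-targeting pool (siControl) or no siRNA, and RNA was taken 48 h after transfection. Batch 1 held 2 libraries of each of the 3 treatments, numbered 1 and 2. Batch 2 held 3 siControl libraries, numbered 1 to 3, and 3 siSbsn libraries, numbered 4 to 6. The labels do not say what a batch or a number stands for, or whether the wells came from separate animals, so the q-values measure only the spread between these wells, which may be technical.

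Keratins build the intermediate filaments of epithelial cells, and each filament needs a type I and a type II chain. Basal keratinocytes use *Krt5* (type II) with *Krt14* (type I). A cell that leaves the basal layer switches to *Krt1* (type II) with *Krt10* (type I), which is the classic early sign of epidermal differentiation, and *Krt2* follows higher in the epidermis. *Krt77*, *Krt78*, *Krt79* and *Krt80* are further type II chains. *Krt77* is known from suprabasal epidermis and sweat ducts, *Krt79* from the hair canal and sebaceous duct, and *Krt80* from many epithelia as they differentiate. *Krt10* was thus the type I chain among the 7. Suprabasin, the product of *Sbsn*, is a secreted protein of suprabasal cells, and the design asked what changed when its mRNA was targeted.

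Total counts ran from 27934836 to 49553923 per library. Levels are given as CPM, the count relative to the library size after TMM scaling, and levels of different genes are compared as CPM per kb of the longest protein-coding transcript. *Sbsn* itself was lower with siSbsn in batch 2, at 123 ± 1.95 CPM against 387 ± 64.9 CPM in siControl (SD, n = 3 each), with a log2-fold change of -1.64 ± 0.10 (SE) and an edgeR q-value of 0.00056. In batch 1 it stood at 1965 and 696 CPM in siSbsn and at 1189 and 1356 CPM in siControl, so the library labelled siSbsn batch 1 replicate 1 had the highest *Sbsn* level of all 12. Over all loci that library was nearest to no siRNA batch 1 replicate 1, at a root-mean-square difference of 0.201 on the log2 scale, against 0.397 to the other siSbsn library of batch 1. That other library, siSbsn batch 1 replicate 2, was likewise nearest to the no siRNA library of its own number, at 0.230. The library siControl batch 1 replicate 1 stood 0.585 to 0.800 from the other 5 libraries of batch 1. The fits and tests that used these libraries are given with and without them. The 5 keratinocyte markers (*Krt5*, *Krt14*, *Trp63*, *Itga6* and *Itgb4*) summed to 17940 to 48115 CPM with none at 0. The summed markers of other cell types were 358 to 1163 CPM for dermal fibroblasts, 684 to 1016 CPM for melanocytes, 0.855 to 4.56 CPM for immune cells, 1.22 to 3.21 CPM for endothelial cells and 74.8 to 159 CPM for the hair follicle inner root sheath.

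The 7 keratins together took 0.127% to 0.272% of the total count of a library, and the *Krt80* locus supplied 83.2% to 96.5% of that. For *Krt1*, number 1 and number 2 of batch 1 gave 214 and 29.7 CPM with no siRNA, 46.1 and 26.4 CPM with siControl and 335 and 46.7 CPM with siSbsn. The batch 2 libraries gave 52.3, 61.4 and 44.5 CPM (siControl) and 26.7, 35.9 and 29.1 CPM (siSbsn). Number 1 of no siRNA and number 1 of siSbsn thus stood far above the other 10 libraries, whose highest value was 61.4 CPM. *Krt10*, its type I partner, had 51.0 and 15.9 CPM with no siRNA, 25.2 and 16.4 CPM with siControl and 70.2 and 18.7 CPM with siSbsn in batch 1. Its batch 2 levels were 68.0, 72.1 and 73.8 CPM (siControl) and 52.8, 59.9 and 52.3 CPM (siSbsn). All 6 libraries of batch 2 were therefore above 5 of the 6 of batch 1.

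*Krt79* had 45.5 and 11.7 CPM with no siRNA, 15.6 and 8.61 CPM with siControl and 64.4 and 16.1 CPM with siSbsn in batch 1. Its batch 2 levels were 1.57, 1.61 and 1.32 CPM (siControl) and 0.971, 0.967 and 0.969 CPM (siSbsn), on 28 to 64 counts. The batches did not overlap, and the order of the batch 1 libraries was led by the same 2 libraries as that of *Krt1*. *Krt77* was led by these 2 libraries too, at a low level, with 3.14 and 0.579 CPM for no siRNA, 0.612 and 0.915 CPM for siControl and 5.21 and 1.23 CPM for siSbsn in batch 1. In batch 2 it had only 6 to 16 counts per library, 0.207 to 0.340 CPM. *Krt78* ran from 12.1 to 18.9 CPM over the 6 libraries of batch 1 and from 2.92 to 4.25 CPM in batch 2.

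The *Krt80* locus had 2191 and 1899.6 CPM with no siRNA, 1710.0 and 1790.0 CPM with siControl and 2424 and 2212 CPM with siSbsn in batch 1. Its batch 2 levels were 1109, 1068 and 1105 CPM (siControl) and 1205, 1192 and 1190.2 CPM (siSbsn). The locus spans chr15:101322888-101405834 and joins *Krt80* with *AK138921*, so reads of the 2 names cannot be told apart, and the sources used here do not say if strand was used in counting. *Krt2*, the keratin of the upper epidermis, had 7 and 3 counts without siRNA and 3 counts in each of the other 4 libraries of batch 1. It had 2, 1 and 1 counts in siControl and 0, 0 and 0 counts in siSbsn of batch 2, where 0 counts allow up to 0.0583 to 0.104 CPM by counting error. *Krt2* did not pass the filter on low counts in any comparison, so 6 of the 7 members were tested, and 5 in batch 2 alone, where *Krt77* did not pass either. At this depth a change of *Krt2* with siSbsn was not detectable, and between the batches it was called lower in batch 2 where the filter was not used, by DESeq2 (-2.51 ± 1.08 (SE) on the log2 scale, q-value 0.0435) and by edgeR (-2.21 ± 0.83, q-value 0.0462).

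**Figure D1:**
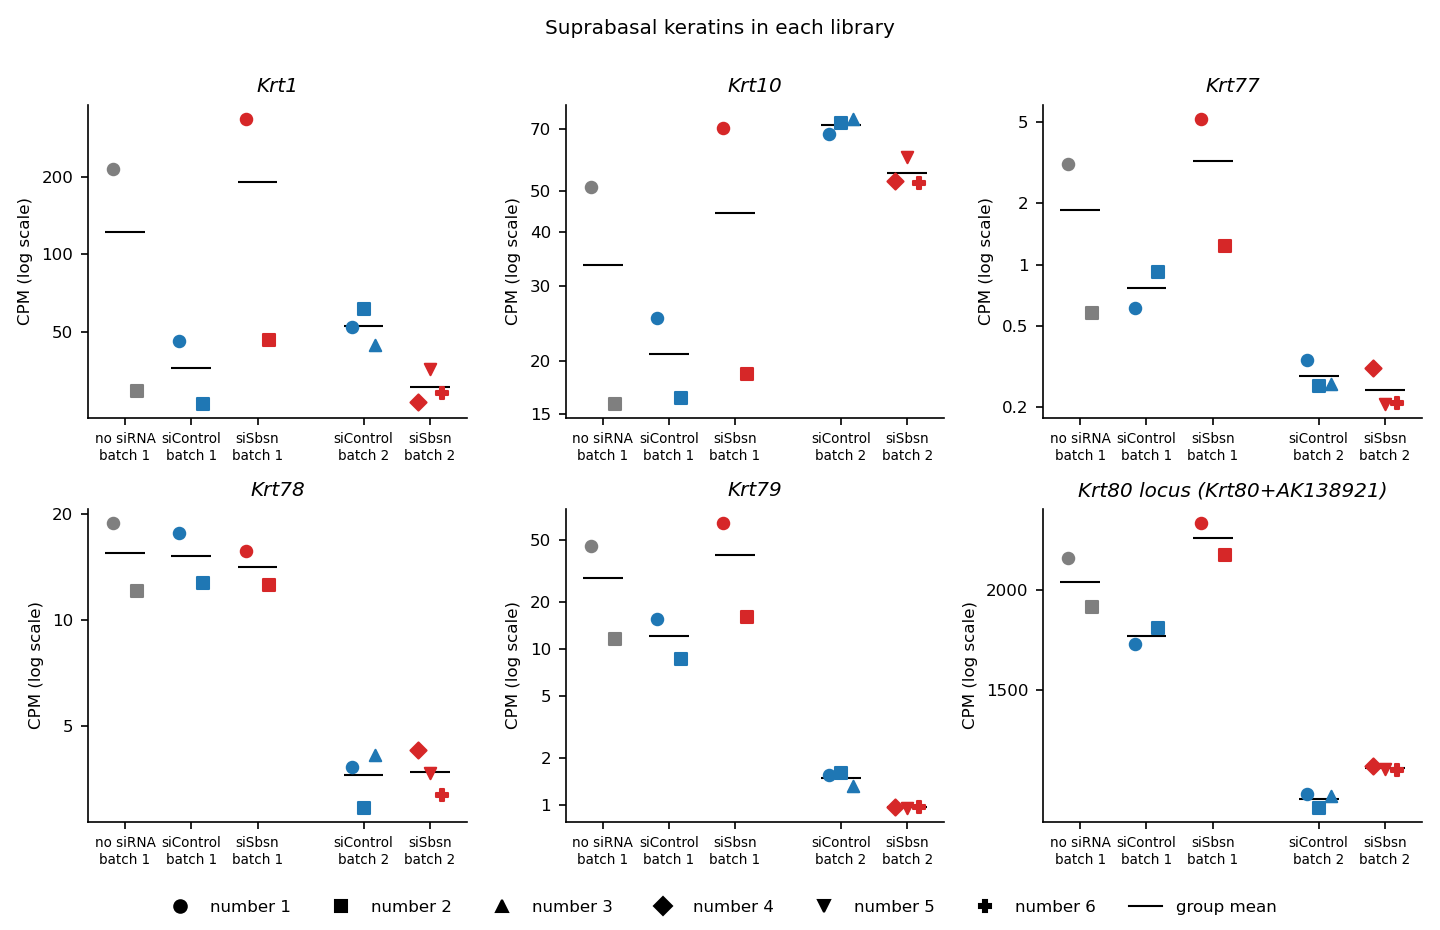
CPM (log scale) of the 6 members that passed the filter, with a panel for each gene. Each point is a library, its shape gives the number in the label, and the line is the mean of the group. The 2 number 1 libraries of no siRNA and siSbsn lead batch 1 for *Krt1*, *Krt10*, *Krt77* and *Krt79*, and *Krt77*, *Krt78*, *Krt79* and *Krt80* are lower in batch 2.

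Per kb of transcript, *Krt80* led the order in both batches, with a median of 522 CPM per kb in batch 1 and 293 CPM per kb in batch 2. In batch 1 it was followed by *Krt1* (18.9), *Krt10* (10.5), *Krt79* (7.55) and *Krt78* (4.14 CPM per kb), and each of these overlapped its neighbour over the 6 libraries. *Krt77* (0.366) and *Krt2* (0.0341 CPM per kb) came last, separate from each other and from *Krt78*. In batch 2 *Krt10* (30.5) stood before *Krt1* (16.4 CPM per kb) with overlapping ranges, and *Krt78* (1.09), *Krt79* (0.546), *Krt77* (0.0869) and *Krt2* (0.00482 CPM per kb) followed with no overlap.

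The ratio of *Krt1* to *Krt10* per kb was 1.38 to 4.07 in batch 1 and 0.431 to 0.727 in batch 2, with no overlap. The summed type II members outweighed *Krt10* 23.6 to 66.8 times in batch 1 and 8.57 to 12.7 times in batch 2, most of it the *Krt80* locus. Without that locus the ratio was 2.42 to 5.18 in batch 1 and 0.503 to 0.777 in batch 2. The suprabasal pair was small beside the basal pair. *Krt1* plus *Krt10* came to 0.123% to 0.958% of *Krt5* plus *Krt14* per kb in batch 1 and to 0.375% to 0.680% in batch 2, so under 1% in each of the 12 libraries. In batch 1 the share was 0.689% and 0.176% without siRNA, 0.123% and 0.134% in siControl and 0.958% and 0.204% in siSbsn. Since the RNA came from whole wells, fewer cells of a type and less RNA per cell cannot be told apart. For siSbsn against siControl within batch, an exact two-sided permutation test gave p = 0.717 for the *Krt1* to *Krt10* ratio and p = 0.617 for the suprabasal to basal ratio (120 permutations, smallest possible p 0.0167). The differences on the log2 scale were 0.16 and 0.47. Both join batches in which siSbsn lay above siControl in batch 1 and below it in batch 2. The *Krt1* to *Krt10* ratio in batch 1 was 2.13 to 4.07 in siSbsn and 1.38 to 1.56 in siControl. In batch 2 it was 0.431 to 0.511 in siSbsn and 0.515 to 0.727 in siControl. The suprabasal to basal share in batch 2 was 0.375% to 0.454% in siSbsn and 0.463% to 0.680% in siControl. The joint p therefore does not tell of a difference inside a batch. Leaving out libraries was added after the values were seen, with 60 permutations each. Without siSbsn batch 1 replicate 1 the exact permutation p was 0.6 for the *Krt1* to *Krt10* ratio (a difference of -0.12) and 0.767 for the suprabasal to basal ratio (-0.080). Without siControl batch 1 replicate 1 it was 0.883 (0.054) and 0.833 (0.24).

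**Figure D2:**
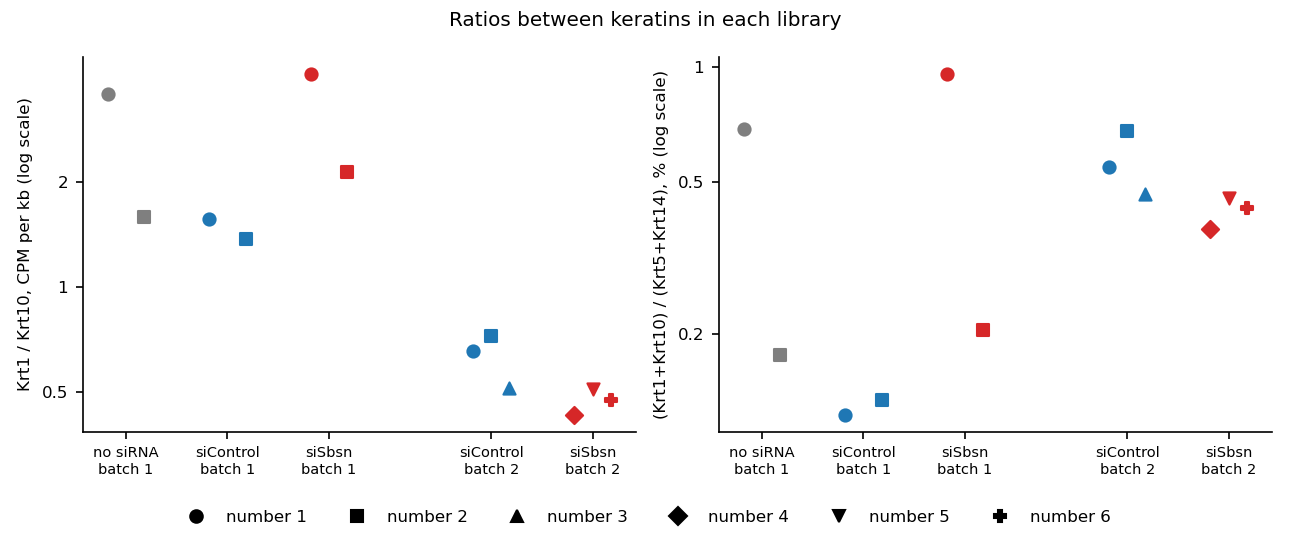
Ratio of *Krt1* to *Krt10* (left) and of *Krt1* plus *Krt10* to *Krt5* plus *Krt14* in percent (right), both from CPM per kb and on log scales. Each point is a library, by treatment and batch, and its shape gives its number. The ratio on the left is over 1.37 in all batch 1 libraries and under 0.728 in all batch 2 libraries, and that on the right stays under 1%.

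*Krt10* lies on chromosome 11 (chr11:99385254-99389364, 8 exons), in the type I cluster. The other 6 lie in the type II cluster on chromosome 15, all on the minus strand of mm10 as *Krt10* is, with GENCODE coordinates. *Krt1* (chr15:101845426-101850794) and *Krt77* (chr15:101858731-101869705) are neighbours in this group, as are *Krt79* (chr15:101929332-101940324) and *Krt78* (chr15:101946001-101954287). *Krt2* is at chr15:101810689-101818169 and *Krt80* at chr15:101347444-101370162. Of the 50-base windows of the longest transcript, 2.445% in *Krt10* were shared with *Gm11940* and 3.876% in *Krt80* with *Gm35853* or *Prdx6*, and 0.0% in the other 5, so that reads inside those windows align to more than 1 gene. RefSeq gave promoters for 5 of the 7, and *Krt1* and *Krt80* had no entry. The 250 bases before the start are shown for the 3 of these that were highest in the same 2 batch 1 libraries as *Krt1*, on the strand of the gene (RefSeq, GRCm38.p6). They are *Krt10* (chr11:99389365-99389614), *Krt77* (chr15:101869706-101869955) and *Krt79* (chr15:101940325-101940574). Capitals mark the letters searched on both strands, namely the TATA box TATAAA, the AP-1 letters TGANTCA, the KLF letters GGGTGTG, the box CCAAT and the grainyhead letters AACCGGTT.
Krt10: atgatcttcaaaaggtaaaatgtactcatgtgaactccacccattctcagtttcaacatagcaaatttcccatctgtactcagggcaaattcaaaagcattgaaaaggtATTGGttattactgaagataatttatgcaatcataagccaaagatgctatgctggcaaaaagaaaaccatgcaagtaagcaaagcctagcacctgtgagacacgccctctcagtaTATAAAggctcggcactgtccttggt
Krt77: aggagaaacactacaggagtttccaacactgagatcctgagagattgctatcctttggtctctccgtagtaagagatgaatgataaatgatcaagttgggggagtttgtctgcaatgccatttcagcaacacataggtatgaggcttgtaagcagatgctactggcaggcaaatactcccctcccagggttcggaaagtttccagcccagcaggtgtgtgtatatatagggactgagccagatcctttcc
Krt79: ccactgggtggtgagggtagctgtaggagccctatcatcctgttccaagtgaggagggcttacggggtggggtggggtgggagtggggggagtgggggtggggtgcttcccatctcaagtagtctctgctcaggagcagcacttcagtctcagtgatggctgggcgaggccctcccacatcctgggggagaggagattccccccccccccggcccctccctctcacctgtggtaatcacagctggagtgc
The *Krt10* window held TATAAA 26 bases before the start and CCAAT on the other strand 141 bases before it, and the windows of *Krt77* and *Krt79* held none of the 5. Among 32851 promoters, the 250 bases before the start held TATAAA in 12.4%, CCAAT in 33.8%, GGGTGTG in 6.93%, TGANTCA in 6.75% and AACCGGTT in 0.116%. The *Krt2* window held CCAAT and GGGTGTG, both on the other strand, and the *Krt78* window held none. A match is a description of letters and no more.

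The first comparison asked whether the suprabasal keratins changed when *Sbsn* was targeted, over both batches. A locus was called when its q-value was under 0.05 and its log2-fold change beyond 0.5 in either direction (edgeR). *Sbsn* itself was not called in this fit, at a log2-fold change of -0.96 ± 0.35 (SE) and a q-value of 0.256. None of the 6 members tested was called, where 0.0% of 13211 loci were called and 2501 had an unadjusted p under 0.05 (DESeq2 called 92 loci, none of them a member). The log2-fold change of siSbsn against siControl was 0.44 ± 0.69 (SE) for *Krt1*, 0.21 ± 0.36 for *Krt10*, 1.08 ± 0.54 for *Krt77*, 0.57 ± 0.52 for *Krt79* and -0.02 ± 0.15 for *Krt78*. The median of the 6 was 0.34, beside 0.01 over all loci. These values turned on the library labelled siSbsn batch 1 replicate 1. Without it *Krt1* was at -0.41, *Krt10* at -0.30, *Krt79* at -0.17 and *Krt77* at 0.22, again with no call. Without siControl batch 1 replicate 2 *Krt1* was at -0.09 and *Krt10* at -0.03. With siControl batch 1 replicate 1 left out instead, *Krt1* was at 0.04 and *Krt10* at 0.10.

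*Krt80* was the member with siSbsn on the same side in both batches. In each batch all siSbsn libraries were above all siControl libraries, which held for 1 of the 6 members and for 5.02% of all loci, while the reverse order in both batches held for 0 members and 4.12% of loci. Its log2-fold change was 0.25 ± 0.08 (SE), with an unadjusted edgeR p of 0.00943 and a q-value of 0.256. Permuting the labels inside each batch gave an exact two-sided p = 0.0167, the smallest it can give. The order of the libraries in both batches fixes this p, so it is no further support. The log2-fold change ran from 0.20 to 0.27 when each of the 10 libraries was left out in turn. The size was below the threshold on the log2-fold change under each of these settings, and the DESeq2 q-value was 0.0577.

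**Figure D3:**
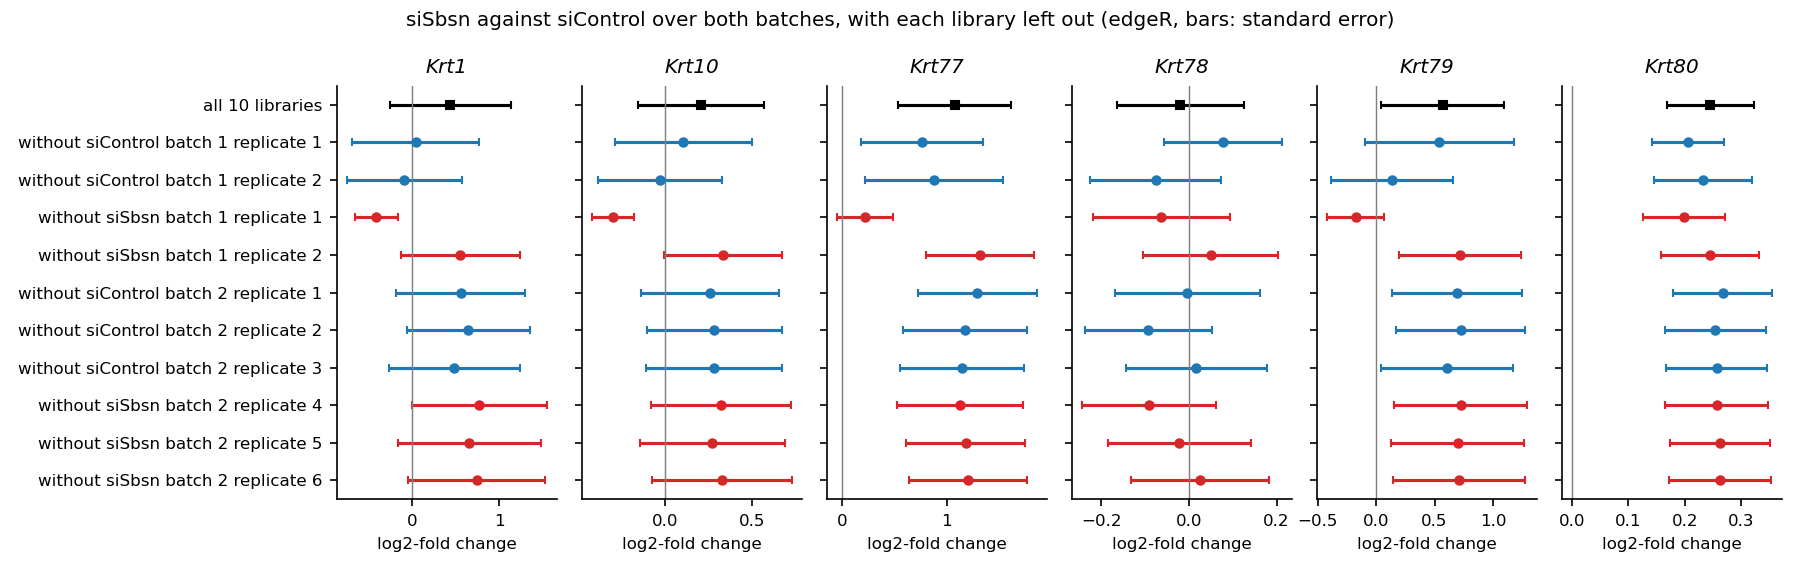
Log2-fold change of siSbsn against siControl over both batches (edgeR, bars are standard errors), with all 10 libraries (square) and with each library left out (circles). *Krt1*, *Krt10* and *Krt79* are below 0 without siSbsn batch 1 replicate 1, *Krt1* and *Krt10* also without siControl batch 1 replicate 2, and *Krt80* stays between 0.20 and 0.27.

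Within batch 1 the siSbsn libraries were on average higher, by a log2-fold change of 2.35 ± 1.10 (SE) for *Krt1*, 2.02 ± 0.93 for *Krt77*, 1.69 ± 0.81 for *Krt79*, 1.05 ± 0.72 for *Krt10*, 0.37 ± 0.20 for *Krt80* and -0.15 ± 0.31 for *Krt78*. None was called, beside 0.0% of 13176 loci (2077 at an unadjusted p under 0.05, and 165 called by DESeq2, none of them a member), and the lowest q-value among the 6 was 0.319. *Krt1*, *Krt77*, *Krt79* and *Krt80* had both siSbsn libraries above both siControl libraries, as did 25.4% of all loci. *Sbsn* itself was not called in this fit either, at a log2-fold change of 0.03 ± 0.45 (q-value 0.975). For *Krt1* the 2 siSbsn libraries, at 335 and 46.7 CPM, lay further apart than the second of them and siControl. With that first siSbsn library left out the log2-fold change was 0.33 for *Krt1*, 0.65 for *Krt77*, 0.37 for *Krt79* and -0.19 for *Krt10*. Without siControl batch 1 replicate 1 it was 2.84 for *Krt1*, 1.79 for *Krt77*, 2.21 for *Krt79* and 1.43 for *Krt10*, with no call.

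Within batch 2, where *Sbsn* was lower in every siSbsn library, the classic pair went the other way. *Krt1* was at 30.6 ± 4.77 CPM in siSbsn against 52.8 ± 8.45 CPM in siControl (SD, n = 3 each), a log2-fold change of -0.79 ± 0.14 (SE). *Krt10* was at 55.0 ± 4.26 CPM against 71.3 ± 2.98 CPM, a log2-fold change of -0.37 ± 0.07. *Krt79* was at 0.969 ± 0.00221 CPM against 1.50 ± 0.157 CPM, a log2-fold change of -0.63 ± 0.17 on few counts. In all 3 genes every siSbsn library was below every siControl library, which held for 9.15% of loci, and for *Krt80* every one was above (9.39% of loci), with a log2-fold change of 0.13 ± 0.06. *Krt78* was at 3.69 ± 0.544 CPM against 3.62 ± 0.623 CPM. None of the 5 was called by edgeR, beside 0.00774% of 12924 loci, which is *Sbsn* alone. The q-value was 0.318 for *Krt1*, 0.319 for *Krt10* and 0.403 for *Krt79*, on unadjusted p-values of 0.000269, 0.000459 and 0.00499. DESeq2 called *Krt1*, with a log2-fold change of -0.78 and a q-value of 8.62e-05, among 7 loci. edgeR called *Krt1* as well without siControl batch 2 replicate 3 (-0.92, q-value 7.62e-06) and without the filter on low counts (-0.78, q-value 0.0053). *Krt10* had a DESeq2 q-value of 0.00543, but its change was smaller than 0.5.

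*Krt1* and *Krt79* therefore had siSbsn above siControl in batch 1 and below it in batch 2, with no overlap in either, a pattern of 2 of the 6 members and of 0.757% of all loci. In batch 1 the lower siSbsn and the higher siControl library were close, at 46.7 and 46.1 CPM for *Krt1* and 16.1 and 15.6 CPM for *Krt79*. The difference between the batches was tested as an interaction, the effect of siSbsn in batch 2 minus that in batch 1. It was -3.17 ± 0.87 (SE) for *Krt1*, -2.35 ± 0.74 for *Krt79*, -2.21 ± 0.89 for *Krt77*, -1.45 ± 0.59 for *Krt10*, -0.26 ± 0.13 for *Krt80* and 0.16 ± 0.30 for *Krt78*. None was called by edgeR (0.0% of 13419 loci, 1991 at an unadjusted p under 0.05), with q-values of 0.272 for *Krt1* and 0.281 for *Krt79*. DESeq2 called *Krt79* (q-value 0.0363) among 166 loci, and so did edgeR with the replicate number as a block (-2.11 ± 0.35, q-value 0.0468). With the library labelled siSbsn batch 1 replicate 1 left out, the interaction was -1.17 for *Krt1* and -1.07 for *Krt79*. Without siControl batch 1 replicate 2 the interaction of *Krt1* was -2.83. Over all libraries left out it ran from -3.98 to -1.17 for *Krt1* and from -3.035 to -1.07 for *Krt79*. Leaving out a library of batch 1 leaves its partner alone in its group. Without siControl batch 1 replicate 1 the values were -3.63 for *Krt1* and -2.84 for *Krt79*, both with a q-value of 0.332.

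**Figure D4:**
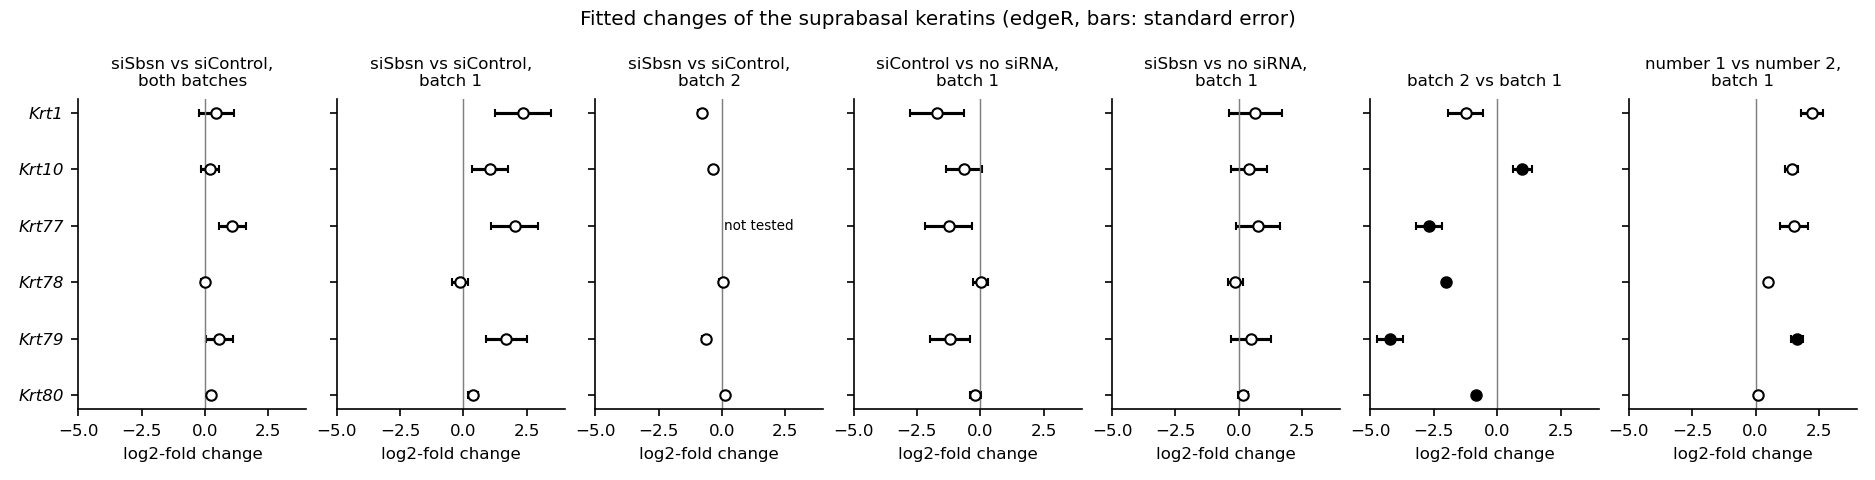
Log2-fold change (points) with its standard error (bars) of each member in 7 comparisons by edgeR. Filled points passed both thresholds (q-value under 0.05 and a change beyond 0.5). No member is filled in the 5 comparisons of treatments, 5 are filled between the batches, and *Krt79* is filled between the numbers of batch 1.

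The libraries without siRNA gave the level of these keratins with no transfected siRNA, and they share the siControl or siSbsn libraries with the comparisons above. Against no siRNA, siControl had log2-fold changes of -1.71 ± 1.07 (SE) for *Krt1*, -1.25 ± 0.92 for *Krt77*, -1.20 ± 0.80 for *Krt79*, -0.65 ± 0.71 for *Krt10*, -0.19 ± 0.20 for *Krt80* and 0.01 ± 0.31 for *Krt78*. No member was called, beside 0.0% of 13176 loci (2116 at an unadjusted p under 0.05, and 25 called by DESeq2). siSbsn differed from no siRNA by 0.65 ± 1.05 for *Krt1*, 0.77 ± 0.86 for *Krt77*, 0.49 ± 0.78 for *Krt79* and 0.40 ± 0.71 for *Krt10*, again with no call (0.0% of 13176 loci, 23 at an unadjusted p under 0.05, and 0 called by DESeq2). For *Krt1* the no siRNA libraries, at 214 and 29.7 CPM, overlapped both siControl and siSbsn. Without no siRNA replicate 1, siControl was above no siRNA by 0.33 for *Krt1* and 0.42 for *Krt10*, and without siControl batch 1 replicate 1 the values were -2.20 and -1.02. With the library labelled siSbsn batch 1 replicate 1 left out, siSbsn was below no siRNA, by log2-fold changes of -1.38 for *Krt1* and -0.84 for *Krt10*. With siControl batch 1 replicate 1 left out instead, siSbsn was above no siRNA by 0.65 for *Krt1* and 0.40 for *Krt10*.

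More members were called between the batches than between the treatments. With treatment in the model, 5 of 6 members were called between batch 2 and batch 1, beside 38.0% of 13211 loci (16.4% higher and 21.6% lower). Lower in batch 2 were *Krt79*, with a log2-fold change of -4.24 ± 0.52 (SE) and a q-value of 0.000126, *Krt77* (-2.70 ± 0.52, q-value 0.00176), *Krt78* (-2.00 ± 0.15, q-value 5.35e-06) and *Krt80* (-0.82 ± 0.08, q-value 2.63e-05). In these 4 every siControl and siSbsn library of batch 2 was below every one of batch 1, which held for 19.1% of loci, and no member had all of them above (16.9% of loci). *Krt10* was the member that rose, by 1.00 ± 0.38 on the log2 scale with a q-value of 0.0449. That call was lost when any of 8 of the 10 libraries was left out (q-value up to 0.129), while with the library labelled siSbsn batch 1 replicate 1 left out it was 1.71 with a q-value of 2.95e-05. Without siControl batch 1 replicate 1 it was 0.90 with a q-value of 0.0916. Among siControl libraries alone *Krt10* was higher in batch 2 by 1.77 ± 0.22 (q-value 0.00916). *Krt1* was not called (-1.25 ± 0.70, q-value 0.155). Its value was 0.08 without the library labelled siSbsn batch 1 replicate 1 and 0.53 among siControl libraries alone, so that its direction rested on that library, and without siControl batch 1 replicate 2 it passed the threshold at -1.81 (q-value 0.0477). The other 4 calls held when each library was left out. What else differed between the batches cannot be told apart from the batch.

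Other genes of the same cells also differed between the batches. Of the basal keratins, *Krt5* (-0.92) and *Krt14* (-0.84) fell, 2 of 3 tested. All 4 wound or stress keratins fell, with *Krt6b* at -2.07 and *Krt6a* at -1.20, as did 5 of 6 simple epithelial keratins, with *Krt8* at -2.49 and *Krt23* at -2.44, while *Krt20* rose (1.01). Of 19 further suprabasal genes 14 fell and 1 rose. Among those that fell were *Cdsn*, which encodes the corneodesmosome protein corneodesmosin (-2.47), *Ivl*, which encodes the envelope precursor involucrin (-2.31), and *Tgm1*, the transglutaminase that cross-links the envelope (-1.54). The 1 that rose was *Flg2* (0.84). Of 12 genes that anchor keratin filaments at desmosomes and hemidesmosomes 5 fell, with the desmosomal cadherin *Dsc2* at -1.26 and periplakin (*Ppl*) at -1.02, and 3 rose, *Dst* at 1.20 and *Plec* at 0.64 among them. Of 12 transcription factors of keratinocyte differentiation 3 fell, with *Grhl1* at -0.83, and *Notch1* rose (1.45). The median over all loci was -0.02, with 16.4% of loci called higher and 21.6% lower. The calls among the 12 factors stood near these shares. The summed melanocyte markers were 684 to 852 CPM in batch 1 and 964 to 1016 CPM in batch 2, with 3 of 5 called higher. Both immune markers tested were called lower (*Ptprc* at -1.30 and *Fcer1g* at -1.26), and their list summed to 2.09 to 4.56 CPM in batch 1 and 0.855 to 1.36 CPM in batch 2. Of 6 fibroblast markers *Dcn* (1.17) and *Lum* (0.51) were called higher and *Col1a1* lower (-0.75), and 1 of 3 endothelial markers was called higher (*Tek*, 0.78). The inner root sheath marker tested, *Tchh*, was called higher (0.51). The part of these cells in the result was not tested.

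Inside each treatment of batch 1 the suprabasal keratins were compared between number 1 and number 2. *Krt1* was 7.21 times as high in number 1 as in number 2 without siRNA, 1.75 times in siControl and 7.18 times in siSbsn. *Krt10* was 3.21, 1.54 and 3.76 times as high, *Krt79* 3.90, 1.81 and 4.01 times, and *Krt78* 1.56, 1.38 and 1.25 times. These 4 were higher in number 1 in all 3 treatments, as were 28.2% of loci. *Krt77* was 5.42 and 4.23 times as high without siRNA and with siSbsn, and 0.669 times in siControl. *Krt80* was at 1.15, 0.955 and 1.10 times. *Krt1*, *Krt10*, *Krt77* and *Krt79* were higher in number 1 of no siRNA and number 1 of siSbsn than in the other 4 libraries of the batch, which held for 17.6% of loci.

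With treatment in the model, *Krt79* was called higher in number 1, by a log2-fold change of 1.64 ± 0.25 (SE) with an edgeR q-value of 0.0479, the 1 call among 6 members beside 2.23% of 13176 loci (1.59% higher and 0.638% lower). *Krt1* had 2.21 ± 0.43 (q-value 0.0639), *Krt10* 1.43 ± 0.26 (q-value 0.0574), *Krt77* 1.51 ± 0.56 (q-value 0.145), *Krt78* 0.49 ± 0.14 (q-value 0.0932) and *Krt80* 0.10 ± 0.11 (q-value 0.548). DESeq2 called *Krt1*, *Krt10*, *Krt77* and *Krt79*, among 1580 of 11616 loci. Both siControl libraries were also left out, a choice made after the values were seen. edgeR then called the same 4 genes, among 2063 of 13141 loci. Their log2-fold changes were 2.84 ± 0.06 for *Krt1*, 2.21 ± 0.21 for *Krt77*, 1.98 ± 0.07 for *Krt79* and 1.79 ± 0.07 for *Krt10*. With no treatment term in the model *Krt79* lost its call (1.79, q-value 0.236), and 0 loci were called with 2009 at an unadjusted p under 0.05. When 1 library of a treatment was left out its partner carried no information on the numbers. The log2-fold change then ran from 1.85 to 2.84 for *Krt1* and from 1.44 to 1.98 for *Krt79*.

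**Figure D5:**
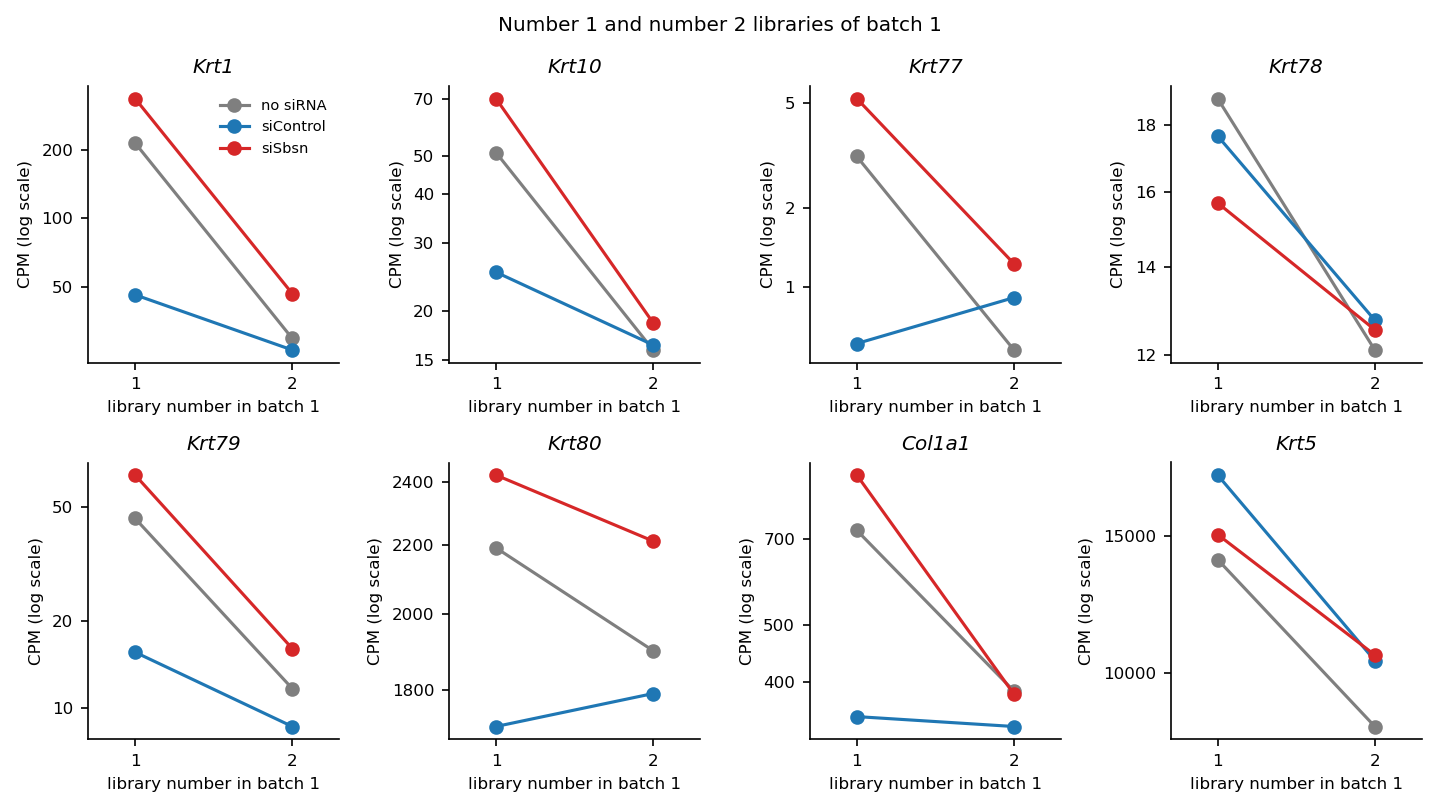
CPM (log scale) in number 1 and number 2 of batch 1, joined by treatment, for the 6 members and for *Col1a1* (fibroblasts) and *Krt5* (basal keratinocytes). *Krt1*, *Krt10* and *Krt79* are higher in number 1 in all 3 treatments, and *Krt77* in 2 of them. *Col1a1* is higher in number 1 without siRNA and with siSbsn and nearly level in siControl.

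Summed markers of fibroblasts, immune cells and melanocytes were highest within batch 1 in the 2 libraries that led these 4 keratins. The 6 fibroblast markers summed to 928 CPM in number 1 of no siRNA and 1163 CPM in number 1 of siSbsn, against 413 to 488 CPM in the other 4 libraries of batch 1 and 358 to 420 CPM in batch 2. *Col1a1* made up most of these sums, at 725 and 385 CPM in numbers 1 and 2 without siRNA, 349 and 335 CPM in siControl and 902 and 381 CPM in siSbsn. Single fibroblast markers ran from -0.046 to 0.90 on the log2 scale between number 1 and number 2. The immune markers summed to 4.36 and 4.56 CPM in the same 2 libraries against 2.09 to 2.31 CPM in the other 4, and the melanocyte markers to 835 and 852 CPM against 684 to 701 CPM. The endothelial markers overlapped, at 3.21 and 2.53 CPM against 1.22 to 2.73 CPM. None of the 6 fibroblast, 5 melanocyte, 3 immune or 3 endothelial markers tested was called between the numbers. *Tchh* of the inner root sheath was called lower in number 1 (-0.71, q-value 0.0474), and its list summed to 74.8 to 80.0 CPM in the number 1 libraries against 122 to 137 CPM in the number 2 libraries. The part of these cells in the keratin values was not tested. Of the 19 further suprabasal genes 4 were called higher in number 1, *Krtdap* (1.30), *Calm4* (1.28), *Lor*, which encodes loricrin (1.12), and *Dmkn* (0.75), and none lower. *Krt6b* was higher (0.68), 1 of 4 wound keratins, and none of the 3 basal, 6 simple epithelial or 12 anchoring genes was called. The transcription factor *Prdm1* was lower (-0.83), 1 of 12. Of all loci 1.59% were called higher in number 1 and 0.638% lower. In the comparison of siSbsn with siControl over both batches 0 members of each of these lists were called.

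The loci nearest to *Krt1* or *Krt10* were found by the root-mean-square difference of log2(CPM + 0.5), centred on each batch, over the 12 libraries and 13561 loci. This measure counts the size of the differences between libraries as well as their order. For *Krt1*, whose own values lay 1.04 from their batch means, the nearest was *Krt79* (0.32), followed by *Serpinb3b* (0.35), *Them5* (0.35), *Gsdmc4*+*Gsdmc*+*Gsdmc2* (0.38) and *Rbp2* (0.40). *Serpinb3b* had 58.2 and 8.02 CPM with no siRNA, 9.80 and 5.95 CPM with siControl and 79.3 and 17.6 CPM with siSbsn in batch 1. *Krt10* stood at place 19, *Krt77* at place 40, *Krt80* at place 2530 and *Krt78* at place 2531. For *Krt10*, with own values 0.59 from their batch means, the nearest were *Pla2g4f* (0.11), *Msmo1* (0.12), *Acat2* (0.13), *Clec2e* (0.13) and *Tmem119* (0.14), with *Krt79* at place 34, *Krt77* at place 108 and *Krt1* at place 1212. *Msmo1*, an enzyme of cholesterol synthesis, had 243 and 81.9 CPM with no siRNA, 118 and 81.7 CPM with siControl and 317 and 112 CPM with siSbsn in batch 1. Centring took out the difference between the batches, where these loci did not follow *Krt10*. In batch 2 *Msmo1* had 30.1 to 41.6 CPM, and the others near *Krt10* were also lower than in batch 1. *Krt10* itself was at 15.9 to 70.2 CPM in batch 1 and 52.3 to 73.8 CPM in batch 2. *Krt1* varied more than *Krt10* (1.04 against 0.59), which alone sets them apart by this measure. *Krt80* and *Krt78*, both 0.958 from *Krt1*, were nearly as far from it as a locus with no change would be (1.04). These orders describe the 12 libraries, which share depth and batch, and say nothing of control.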

How the data were processed

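RNA was measured by RNA-Seq in 12 libraries, grouped by the treatment and batch of their labels. The authors aligned reads to mm10 with STAR, kept those that aligned to 1 place and counted them per gene of the UCSC KnownGene annotation, and the deposited values are raw whole-number counts. Reads dropped for aligning to several places lower genes with near-identical copies. Gene models were taken from GENCODE, and promoters from RefSeq (GRCm38.p6).

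The counts were normalized by TMM, filtered (filterByExpr, minimum count 10) and fitted with edgeR 4.0.16 under R 4.3.3 (quasi-likelihood F test) over all loci, with batch in the model where both batches entered, and q-values by Benjamini-Hochberg. A locus was called when its q-value was under 0.05 and its log2-fold change beyond 0.5. The standard error is the absolute log2-fold change over the square root of F. CPM used the effective library sizes of all 12 libraries (13562 loci pass), and 0.5 was added before log2. A floor of 3 counts was used for 0 counts, and floors cover counting error only. The study's test, DESeq2 (1.42.0), was an alternative, beside limma-voom (limma 3.58.1), other scalings, no filter, other sample sets and leaving out each library. The procedure was also run on simulated data, in which each locus had a common mean over the libraries apart from the changes put in. No library was made to stand apart there, so that run, whose outcome is not given here, does not cover libraries that do.

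Genes named are the 7 members in every comparison, *Sbsn*, the 5 loci nearest to *Krt1* and to *Krt10*, and at most 4 called genes of each further list by smallest q-value. The members and lists were chosen with earlier results of these data known, so their choice lends no support to any pattern. The inner root sheath keratins are reported only as part of the marker sums.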

Additional observations from a re-analysis of the deposited data

Results flagged for a closer look

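Among the 5 siSbsn libraries of both batches, *Krt1* in the library labelled siSbsn batch 1 replicate 1 (335 CPM) lay far from the others, with a gap to the nearest of 0.781 of the group's whole range on the log2 scale, above the critical value of 0.71. In the same group *Krt10* in siSbsn batch 1 replicate 2 (18.7 CPM) lay far below the others, with a gap of 0.777 of the range. These 2 were found in 12 groups of 5 libraries, which mix the batches, and chance marks about 1 in 20.

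The effect of siSbsn went opposite ways in the batches for *Krt1* and *Krt79*, with no overlap of siSbsn and siControl in either batch. The margin in batch 1 was small. There siSbsn replicate 2 stood at 46.7 CPM and siControl replicate 1 at 46.1 CPM for *Krt1*, and at 16.1 and 15.6 CPM for *Krt79*. The interaction was -3.17 for *Krt1* and -2.35 for *Krt79* on the log2 scale, and by edgeR neither passed the threshold. With all libraries kept, *Krt79* passed it with the replicate number as a block (-2.11, q-value 0.0468) and with DESeq2 (q-value 0.0363). Calls with a library left out are given further below. The library labelled siSbsn batch 1 replicate 1 had more *Sbsn* than either siControl library of its batch, and the part of that library in the difference is given by the values without it, -1.17 and -1.07.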

How the results depend on the processing

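Of the values of single members under the alternatives, 543 kept their direction and side of the threshold, 39 came to pass it, 9 no longer passed it and 35 changed sign. The cause of these changes was not tested, except where fewer samples or more loci enter by construction.

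The number of members called stayed at 0 for siSbsn against siControl over both batches under all 20 alternatives. In batch 1 alone it rose to 4 without the filter on low counts, beside 851 of 18973 loci. For siControl against no siRNA it rose to 2 without the filter, beside 815 of 18973 loci. In batch 2 alone it rose to 1 with DESeq2 (7 of 9125 loci) and without the filter (9 of 19148 loci). There it was 0 to 1 over libraries left out, beside 1 to 10 loci. In the interaction it rose to 1 with DESeq2 and with the replicate block (0 to 4 over libraries left out). Between the numbers of batch 1 it rose from 1 to 4 with DESeq2 and with both siControl libraries left out, to 3 without the filter and to 3 to 4 over libraries left out, and fell to 0 with no treatment term. Between the batches it was 6 with DESeq2 (5331 of 16165 loci) and without the filter (5372 of 20053 loci), which add *Krt2*. There it was 4 to 5 over libraries left out, beside 4295 to 5557 loci. In the interaction DESeq2 called 166 of 11888 loci, and edgeR with the block 73 of 13419. Between the numbers DESeq2 called 1580 of 11616 loci. For the numbers edgeR called 2063 of 13141 loci without the siControl libraries and 681 of 18973 without the filter. The difference of siSbsn from siControl in the *Krt1* to *Krt10* ratio ran from -0.12 to 0.29 on the log2 scale over libraries left out (-0.12 without siSbsn batch 1 replicate 1 and -0.0031 without siControl batch 1 replicate 2), and in the suprabasal to basal ratio from -0.080 to 0.67, none past the threshold.

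Values that changed sign, by libraries left out, ran for siSbsn against siControl over both batches from -0.41 to 0.77 for *Krt1*, -0.30 to 0.33 for *Krt10*, -0.093 to 0.078 for *Krt78* and -0.17 to 0.72 for *Krt79*. In batch 1 alone they ran from -0.19 to 1.71 for *Krt10* and -0.38 to 0.14 for *Krt78*, and in batch 2 alone from -0.078 to 0.16 for *Krt78*. For siControl against no siRNA they ran from -2.52 to 0.33 for *Krt1*, -1.26 to 0.42 for *Krt10*, -1.99 to 0.43 for *Krt77*, -0.27 to 0.36 for *Krt78* and -1.87 to 0.089 for *Krt79*. For siSbsn against no siRNA they ran from -1.38 to 2.68 for *Krt1*, -0.84 to 1.48 for *Krt10*, -0.60 to 2.46 for *Krt77*, -0.42 to 0.22 for *Krt78* and -0.83 to 1.78 for *Krt79*. Between the batches *Krt1* ran from -1.81 to 0.075, with 0.53 among siControl libraries alone, and in the interaction *Krt78* ran from -0.088 to 0.38. For siControl against no siRNA *Krt78* was -0.010 with DESeq2, -0.0085 with its size factors in edgeR and -0.00065 without the filter. A lone library left in a group was assumed to vary like the other groups.

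Counts of loci called moved with 1 library. Without siControl batch 1 replicate 2 edgeR called 2618 loci for siSbsn against siControl in batch 1, 3213 for siControl against no siRNA and 4362 in the interaction, against 0 in each with all libraries. Without siSbsn batch 1 replicate 2 it called 411 in the interaction. Without the filter it called 851 in batch 1, 815 for siControl against no siRNA, 9 in batch 2, 17 in the interaction and 681 between the numbers, and DESeq2 called 1580 between the numbers against 294. Removing the trend on gene length gave 6 in batch 2 and 474 between the numbers. Without siControl batch 2 replicate 3 it called 10 in batch 2, between the numbers 334 to 2109 over libraries left out, and between the batches 1940 among siControl libraries alone against 5024.

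Libraries of batch 1 share the numbers 1 and 2. The differences between numbers correlated over loci by 0.379 (no siRNA and siControl), 0.805 (no siRNA and siSbsn) and 0.457 (siControl and siSbsn), but with 2 numbers this does not show that they pair the wells. With the replicate block no locus was called for siSbsn against siControl (over both batches or in batch 1) or for either against no siRNA, and 73 were in the interaction, where *Krt79* passed (-2.11, q-value 0.0468). In batch 2 no number is shared by both treatments.

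Depth limits *Krt2* (0 to 7 counts) and *Krt77* in batch 2 (6 to 16 counts). With 2 libraries per treatment in batch 1, the fit rests on the spread within 3 pairs. Over all loci the siControl pair was the widest, at a root-mean-square difference of 0.585 on the log2 scale. For *Krt1*, *Krt10* and *Krt79* it was the closest, with number 1 over number 2 at 1.75, 1.54 and 1.81. The other 2 pairs were at 3.21 or more for these genes. For *Krt78* the siControl pair lay between the other 2.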
